A study of Mus musculus with 6 samples.

Results

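The 34 genes described here encode proteins that start an autophagosome or work in the lysosome. They were taken by gene name from the scanner files: 17 genes of the autophagy core, 15 lysosome genes, and the transcription factors Tfeb and Tfe3. They stand among 32275 gene names on the array. Where a gene had several probes, the one with the highest mean log2 signal over the 6 arrays stood for it. Satellite cells of mouse muscle (strain C57BL6) were profiled, sorted from 3 mice that lack Rpt3 (gene Psmc4, an ATPase subunit of the proteasome's regulatory particle) in satellite cells and from 3 control mice. Each mouse gave 1 array. The Cre driver, the alleles of the controls, the sorting markers, the sex and the age of the mice are not given in the sources used here. In such bulk samples, fewer cells of a type and less RNA per cell cannot be told apart.

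Macroautophagy encloses part of the cytoplasm in a double membrane and delivers it to the lysosome. The ULK kinase complex and the class III phosphatidylinositol 3-kinase complex start this membrane, and ubiquitin-like conjugation systems that end in lipidated Atg8 proteins extend it. Lysosomal membrane proteins, proton pumps and acid hydrolases then break the content down, and TFEB and TFE3 drive transcription of many of these genes by binding E-box letters in their promoters. The proteasome and autophagy are the main routes by which cells degrade proteins, and resting satellite cells, the stem cells of muscle, depend on autophagy to stay quiescent.

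Values are log2 of the array's processed signal minus the 75th percentile of that array, so 0 is a probe at the 75th percentile. Tests were kept to probes that stood well clear of background (the scanner's own call) on all 3 arrays of knockout, of control or of both, which left 17952 genes. The share of probes well above background was 44.2% in knockout 3 and 51.7% to 57.9% on the other 5 arrays. On the first principal component of all genes, which held 29.3% of the variance, knockout 3 lay at 70.3 and the others between -23.7 and -4.22. Knockout 3 and all controls lay in row 2 of the slide, and knockout 1 and 2 in row 1. The probe for Psmc4 read 2.004, 2.02 and 1.52 on the knockout arrays (1 to 3, in that order here and throughout), against 2.89, 2.58 and 2.84 on the control arrays. The difference was -0.92 (SE 0.24, limma adjusted p = 0.412, exact permutation p = 0.1, the smallest that 3 arrays against 3 allow), or 52.8% of the control level. Whether this probe lies in the deleted part is not given in the sources used here. Of 12 satellite cell markers all 12 were tested, 6 higher and 6 lower in knockout and none past the threshold. Pax7 differed by 0.17, Pax3 by 0.13, Sdc4 by 0.48 and Chodl by -0.63. Without overlap 3 were lower, Calcr (-1.04), Cxcr4 (-0.65) and Myf5, and 0 higher, where 5.95% of all genes were lower and 4.87% higher. Myod1 read between 4.10 and 4.48 on all arrays, while Myf5 was well above background in 3 of 3 controls and 0 of 3 knockouts. Myf5 thus passed the filter through control alone.

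Of the 34 genes, 30 were tested, and none passed an adjusted p of 0.05 in limma, where 0% of all genes did. At an unadjusted p under 0.05 the members gave 0 higher and 0 lower in knockout, where 2.77% of all genes were higher and 4.45% lower. Of the 30, 17 lay higher in knockout and 13 lower, against 54.8% of all genes higher. The median difference was 0.16 over the 15 tested core genes, -0.0048 over the 14 tested lysosome genes and 0.035 over all 17952 genes. The core median stayed above 0 under each scaling of the arrays, and the lysosome median turned to 0.019 with median scaling. The groups did not overlap for 1 member, Atg7, which was lower in knockout, where 4.87% of all genes were higher and 5.95% lower without overlap. The 95% interval of the difference included 0 for 30 of 30 members. It lay within 1 log2 unit of 0 for 13 of the 14 lysosome genes, 8 of the 15 core genes and Tfe3, so for the other 8 members a change of more than 2-fold in 1 direction lay within the interval.

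**Figure D1:**
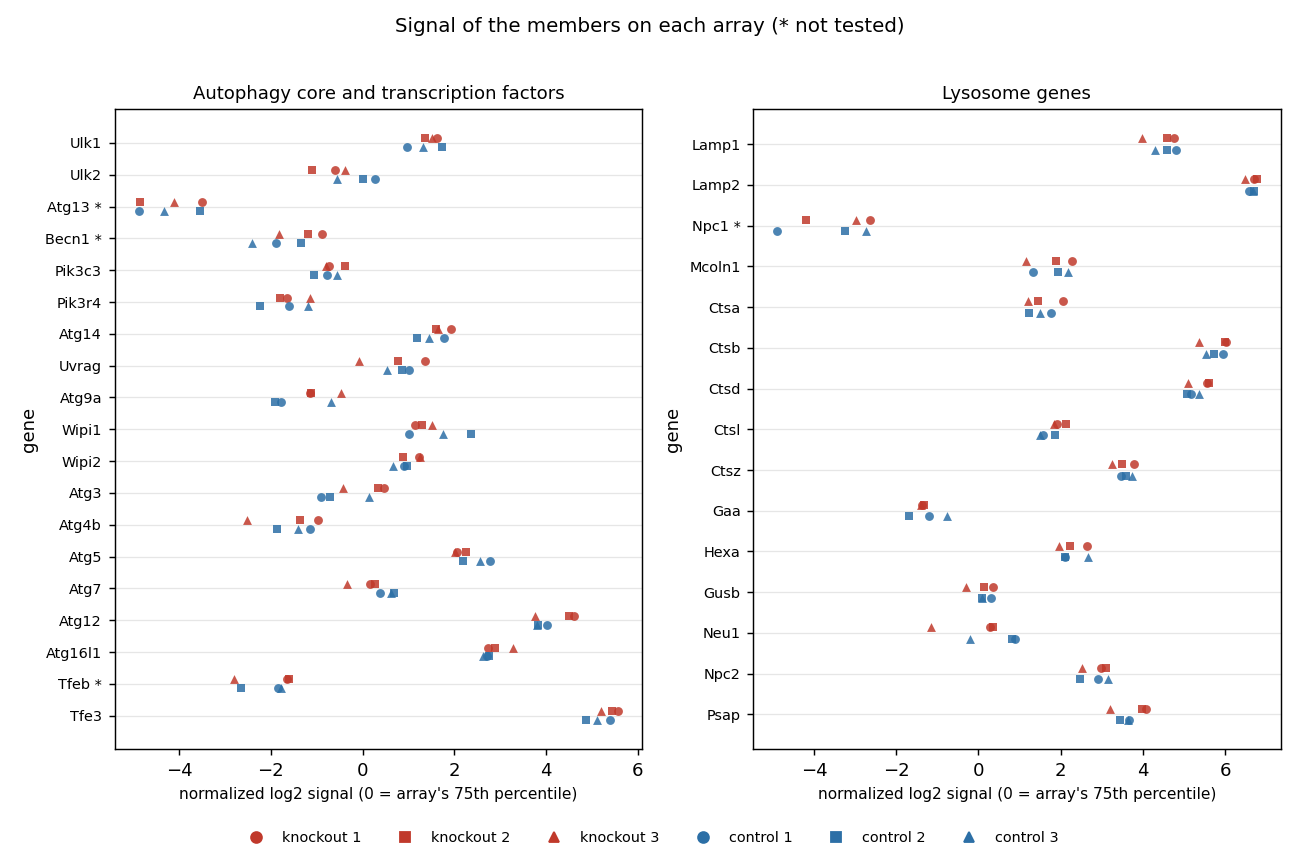
Normalized log2 signal of the 34 genes on each of the 6 arrays; red points are knockout, blue points control, the shape gives the replicate, and an asterisk marks the 4 genes that were not tested. Levels may be compared between arrays for a gene, not between genes; red and blue points overlap for every tested gene except Atg7, and the red triangles of knockout 3 lie leftmost for 10 of 14 tested lysosome genes.

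Among the members that start the autophagosome, Ulk1 and Ulk2 encode the kinases that receive the nutrient signal. Ulk1 (chromosome 5, 111213514 to 111213573 of build mm9, as are all probe positions here) read 1.62, 1.36 and 1.53 in knockout, against 0.97, 1.74 and 1.31 in control. Every knockout value lay within the control range, and the difference was 0.16 (SE 0.26, adjusted p = 0.985, exact permutation p = 0.6). It was -0.024 without control 1. Ulk2 (chromosome 11, 61589841 to 61589900) read -0.59, -1.09 and -0.38 in knockout, against 0.27, 0.0033 and -0.55 in control. Control 3 overlapped with the knockout arrays, the other 2 controls were above them, and the difference was -0.60 (SE 0.30, adjusted p = 0.794, exact permutation p = 0.2). A second, dimmer Ulk2 probe was well above background on 1 of 3 knockout and 3 of 3 control arrays. It passed the filter through control alone, so its values are not given. With the mean of tested probes, which includes it, Ulk2 stood at -0.70. The probe for Atg13, a scaffold of the ULK complex, was not well above background on any array. Whether these probes lie in an exon or a UTR was not examined, since no mm9 annotation was used here.

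The class III phosphatidylinositol 3-kinase complex makes the lipid that marks the growing membrane. Becn1, its beclin 1 subunit, was well above background on 2 of 3 arrays in each group and so was not tested. Its probe (chromosome 11, 101151771 to 101152713, a span of 943 bases for a probe of 60) read -0.88, -1.19 and -1.82 in knockout, against -1.88, -1.34 and -2.41 in control. Knockout 1 and 2 lay above all controls and knockout 3 among them, a difference of 0.58 without the background filter (SE 0.39, adjusted p = 0.991). The lipid kinase itself, Pik3c3, differed by 0.16, its regulatory subunit Pik3r4 by 0.14 and the targeting subunit Atg14 by 0.26. Uvrag, which replaces Atg14 in the endosomal form of the complex, differed by -0.12. For Pik3r4 and Uvrag the sign turned when knockout 3 was left out, to -0.051 and 0.26, and Pik3c3 ran from 0.024 (without control 2) to 0.28 (without control 3).

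Atg9a, the membrane protein that seeds autophagosomes, differed by 0.55 (SE 0.37, adjusted p = 0.910). Of the phosphoinositide-binding proteins that read the lipid mark, Wipi1 differed by -0.39 and Wipi2 by 0.28. With 1 array left out, Wipi1 stood at -0.063 (without control 2) to -0.74 (without control 1), and Atg9a at 0.33 (without control 2) to 0.94 (without control 3). Both dimmer probes of Wipi1 passed the filter through control alone (1 of 3 knockout arrays well above background), so their values are not given. With the mean of tested probes, which includes them, Wipi1 stood at -0.66. Wipi2 has a second probe of nearly equal signal, which read 1.29, 1.46 and 1.11 in knockout, against 0.72, 0.73 and 0.49 in control. On this probe all knockout arrays lay above all controls (difference 0.64, exact permutation p = 0.1), whereas on the brightest one the groups overlapped. Leaving out 1 array could make this probe the brighter one, and Wipi2 then stood as high as 0.73 (without knockout 3).

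The conjugation systems attach ubiquitin-like proteins to each other and to lipid, and their members did not lie on one side. Atg7, the E1-like activating enzyme that both systems share, had the smallest p of the 30. Its probe (chromosome 6, 114809893 to 114809952) read 0.16, 0.27 and -0.35 in knockout, against 0.38, 0.69 and 0.62 in control. All knockout arrays lay below all controls, and the difference was -0.54 (SE 0.25, adjusted p = 0.744, exact permutation p = 0.1). It stayed below 0 under all 20 alternatives, from -0.91 to -0.32, and its lowest adjusted p among them was 0.274. The second Atg7 probe was well above background on no array.

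Atg5, which is joined to Atg12 and in that form promotes the last transfer to lipid, was likewise lower in the mean. Its probe (chromosome 10, 44083997 to 44084056) read 2.07, 2.25 and 2.02 in knockout, against 2.79, 2.18 and 2.57 in control. Control 2 lay below knockout 2, and the difference was -0.40 (SE 0.24, adjusted p = 0.864, exact permutation p = 0.2). Atg3, the E2-like enzyme of the Atg8 branch, lay on the other side. Its probe (chromosome 16, 45183811 to 45183870) read 0.47, 0.33 and -0.43 in knockout, against -0.90, -0.70 and 0.14 in control. Knockout 1 and 2 lay above all controls and knockout 3 below control 3, and the difference, the highest of the members, was 0.61 (SE 0.36, adjusted p = 0.864, exact permutation p = 0.2). Atg12 differed by 0.41, Atg16l1, which places the Atg5 and Atg12 conjugate on the membrane, by 0.28, and the protease Atg4b by -0.14. A dimmer Atg12 probe passed the filter through control alone (1 of 3 knockout arrays well above background), so its values are not given. With the mean of tested probes, which includes it, Atg12 stood at 0.12. Atg4b was well above background on 2 of 3 knockout and 3 of 3 control arrays, so it passed the filter through control alone. Without knockout 3 the sign of Atg4b turned, to 0.31, and knockout 3 alone against the controls gave -0.13 for Atg12.

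**Figure D2:**
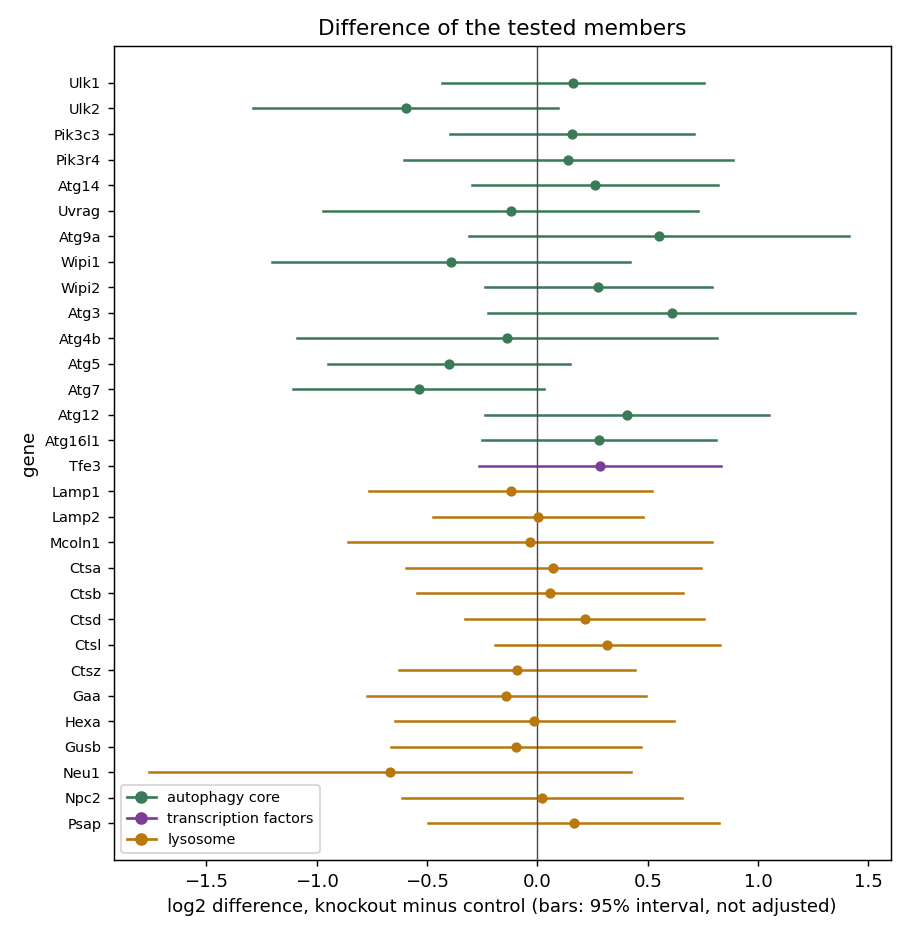
Log2 difference, knockout minus control, of the 30 tested genes, with 95% intervals that are not adjusted for the number of genes; colours give the group of genes. Each interval includes 0, and point estimates run from -0.67 for Neu1 to 0.61 for Atg3.

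Tfeb and Tfe3 encode related basic helix-loop-helix factors that enter the nucleus when the lysosome signals starvation or stress. Tfeb was well above background on 2 of 3 arrays in each group and was not tested. Its brighter probe (chromosome 17, 47929089 to 47929148) read -1.64, -1.61 and -2.81 in knockout, against -1.84, -2.65 and -1.77 in control. The highest values were in knockout 1 and 2 and the lowest in knockout 3, with a difference of 0.071 without the background filter (SE 0.43). Tfe3 (chromosome X, 7352268 to 7352327) read 5.57, 5.45 and 5.21 in knockout, against 5.41, 4.87 and 5.11 in control. Control 1 overlapped with the knockout arrays, and the difference was 0.28 (SE 0.24, adjusted p = 0.954, exact permutation p = 0.2). A second Tfe3 probe gave 0.26. RNA levels do not show where these proteins were in the cell.

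Because these factors are known to bind the E-box letters CACGTG and a longer form of them, the start sites of the members were searched for CACGTG and for TCACGTGA. Both read the same on either strand, and each TCACGTGA holds a CACGTG. RefSeq windows of 300 bases around the start sites, on build GRCm38.p6, were at hand for 28 of the 34 genes. CACGTG was found in 10 of the 28, or 35.7%, where 8.09% of all 27025 genes with a window had it. It was in 6 of 13 lysosome genes, 4 of 13 core genes and neither of the 2 factors. TCACGTGA was found in 4 of the 28, Atg3, Mcoln1, Ctsa and Ctsd (14.3%, against 1.12% of all genes). A match is a description of letters, not of binding. The stretches below, upstream of the start site and on the gene's strand, show the genes with TCACGTGA, Atg7 as the member whose groups did not overlap, and Lamp1, which has 4 copies of CACGTG. All but Atg3 and Ctsd were picked after the letters or the values were seen. CACGTG is in capitals.
Atg3, chr16:45158720-45158778, plus strand: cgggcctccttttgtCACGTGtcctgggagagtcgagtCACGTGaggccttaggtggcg
Atg7, chr6:114670949-114670984, plus strand: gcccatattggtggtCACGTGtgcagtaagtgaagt
Lamp1, chr8:13159085-13159160, plus strand: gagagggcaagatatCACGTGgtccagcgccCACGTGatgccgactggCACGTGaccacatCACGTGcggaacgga
Mcoln1, chr8:3500433-3500494, plus strand: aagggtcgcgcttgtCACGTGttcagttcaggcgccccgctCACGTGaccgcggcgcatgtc
Ctsa, chr2:164833746-164833772, plus strand: caatgagcaaactgtCACGTGatgcag
Ctsd, chr7:142387905-142387940, minus strand: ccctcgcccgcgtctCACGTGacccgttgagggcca
In these stretches the letters begin 94 and 71 bases before the start site in Atg3, 132 in Atg7, 61, 45, 28 and 15 in Lamp1, 71 and 45 in Mcoln1, 12 in Ctsa and 98 in Ctsd. The 10 members with CACGTG had a median difference of 0.019, 5 higher and 5 lower in knockout. The 16 tested members with a window but without these letters had a median of -0.0048, 8 higher and 8 lower. The 4 tested members with no window had a median of 0.22, 4 higher and 0 lower.

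**Figure D3:**
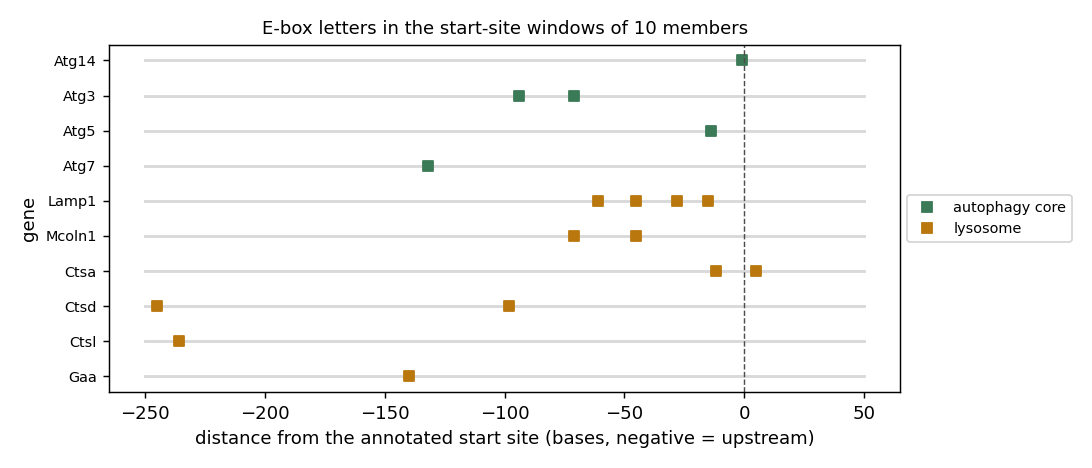
Position of the letters CACGTG in the start-site windows of the 10 members that hold them; each grey line is a window, each square marks the first base of a match, and the dashed line is the annotated start site. Lamp1 has 4 matches, and Atg3, Mcoln1, Ctsa and Ctsd have 2 each.

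Among lysosomal membrane proteins, Lamp1 and Lamp2 are the abundant glycoproteins that line the inner face. Lamp1 (chromosome 8, 13175277 to 13175336) read 4.75, 4.59 and 3.97 in knockout, against 4.80, 4.57 and 4.30 in control. Knockout 1 and 2 lay within the control range and knockout 3 below it. The difference was -0.12 (SE 0.28, adjusted p = 0.985, exact permutation p = 0.7), and 0.11 without knockout 3. Lamp2 differed by 0.0042 (SE 0.21) and Mcoln1, the calcium channel of the lysosome, by -0.034 (SE 0.36). For Mcoln1, too, the sign turned without knockout 3, to 0.28, and Lamp2 changed sign with several of the alternatives. Npc1, which exports cholesterol, was well above background on 1 of 3 knockout and 0 of 3 control arrays and was not tested.

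The cathepsins are the proteases of the lysosome. Ctsl (chromosome 13, 64465287 to 64465346) read 1.91, 2.14 and 1.84 in knockout, against 1.57, 1.87 and 1.50 in control. Only control 2 overlapped, lying above knockout 3 by a small margin, and the difference was 0.32 (SE 0.22, adjusted p = 0.92, exact permutation p = 0.2). Ctsd (chromosome 7, 149561962 to 149562021) read 5.57, 5.60 and 5.10 in knockout, against 5.18, 5.08 and 5.37 in control. Knockout 1 and 2 were the highest and knockout 3 lay among the controls, for a difference of 0.21 (SE 0.23, adjusted p = 0.985, exact permutation p = 0.3). Ctsa, which also protects glycosidases of the lysosome, differed by 0.072, Ctsb by 0.055 and Ctsz by -0.093. For Ctsz the sign turned without knockout 3, to 0.041, and for Ctsa and Ctsb without knockout 1, to -0.17 and -0.054.

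All 4 glycosidases were lower in the mean, each with an interval that included 0, and with the mean of each gene's tested probes Gaa and Gusb lay at 0.061 and 0.016 instead. Neu1, the sialidase, had the lowest difference of the members. It read 0.27, 0.36 and -1.14 in knockout, against 0.89, 0.82 and -0.21 in control (chromosome 17, 35072105 to 35072164). Knockout 3 and control 3 lay well below the other arrays of their groups, and the difference was -0.67 (SE 0.47, adjusted p = 0.92, exact permutation p = 0.4). It was -0.18 without knockout 3. Gaa, which degrades glycogen, differed by -0.14 (0.087 without control 3), Gusb, which removes glucuronic acid, by -0.097, and Hexa, which degrades gangliosides, by -0.014. Without knockout 3, Gusb stood at 0.089 and Hexa at 0.14. Of the soluble proteins that handle lipids, Npc2, which hands cholesterol to Npc1, differed by 0.021 and Psap, the precursor of the saposins, by 0.17. Without knockout 1 they stood at -0.035 and -0.00064.

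The lysosome genes shared a pattern over the knockout arrays rather than a difference between the groups. With each gene centred on its 6 arrays, the 14 tested lysosome genes averaged 0.24, 0.13 and -0.40 in knockout 1, 2 and 3. In control 1, 2 and 3 they averaged 0.044, -0.057 and 0.048. Knockout stood at -0.011 ± 0.34 (SD, n = 3) and control at 0.011 ± 0.059 (SD, n = 3), so the knockout arrays enclosed the controls. Knockout 3 was the lowest of the 6 arrays for 10 of 14 lysosome genes (71.4%), for 5 of 15 core genes (33.3%) and for 25.5% of all genes. For the core the knockout arrays stood at 0.14, 0.016 and -0.088 and the control arrays at -0.037, -0.088 and 0.059. On each array the lysosome mean minus the core mean, which does not depend on scaling between arrays, stood at 0.098, 0.11 and -0.31 in knockout, with 0.080, 0.031 and -0.012 in control. Knockout 3 was the array that departed from the rest.

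**Figure D4:**
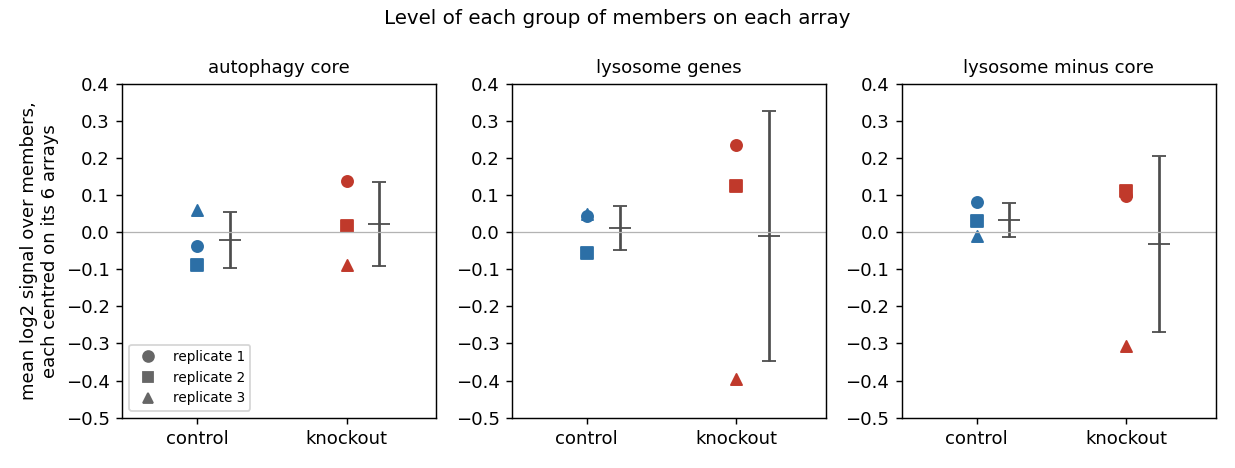
Mean log2 signal, each gene centred on its 6 arrays, of the autophagy core, of the lysosome genes and of their difference; points are arrays, their shape the replicate, and the line with bars beside them is the mean and SD of 3 arrays. The lysosome mean of knockout 3, at -0.40, lies below all other arrays, whose means run from -0.057 to 0.24.

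Knockout 3 is also the only knockout array in the slide row of the controls. Against them, knockout 3 lay lower than all controls for 15 of 30 members, 10 of them lysosome genes, and higher for 4, where 30.2% of all genes were lower and 35.7% higher. The median difference was then -0.35 for the lysosome genes and -0.011 for the core, with Ctsd at -0.11 and Psap at -0.40. Knockout 1 and 2 alone against the controls gave a lysosome median of 0.17 and a core median of 0.25, beside 0.023 over all genes. Of the 30 members tested on all arrays, 9 then lay above all controls, where 14.2% of the 17952 genes did, and 2 below, where 12.2% did. The 9 were Atg3 (0.89), Wipi2 (0.73, on its second probe), Atg12 (0.67), Psap (0.45), Tfe3 (0.38), Ctsl (0.38), Ctsd (0.37), Ctsb (0.27) and Lamp2 (0.087), and the 2 were Ulk2 (-0.75) and Atg7 (-0.35). Becn1 (0.84) and Tfeb (0.47) were tested here as well, but passed the filter only through knockout 1 and 2, where they are high, and are not counted, although Becn1 enters the core median. None passed the adjusted threshold (lowest adjusted p = 0.419). Here the slide row and the genotype cannot be told apart.

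Markers of other cell types also varied among the arrays. On the scale of the lysosome means above, the 5 of 11 neutrophil markers that were tested stood at 0.89, 1.11 and -0.70 in knockout, against -0.061, -0.59 and -0.65 in control. Their mean level ran from 0.26 to 2.07 in knockout and from 0.31 to 0.90 in control, and knockout 1 and 2 were the arrays that stood apart. Csf3r read 9.12 to 9.81 over the arrays, far above the other tested neutrophil markers, and raised this mean level. S100a8, which varied most among the 5, read 1.72, 2.59 and -4.09 in knockout, against -2.50, -1.91 and -2.13 in control. This gene therefore weighed most on the neutrophil means. Elane and Csf3r were highest in knockout 3, Ly6g was lowest in control 3, and Camp was lowest in knockout 3. Of the 6 not tested, S100a9, Ltf and Cxcr2 cleared background on 2 arrays of each group, Ngp on 2 of knockout and 1 of control, Mpo on 1 of each, and Retnlg on 0 of knockout and 1 of control. The 9 of 13 macrophage markers tested stood at 0.30, 0.16 and -0.25 in knockout, against 0.15, -0.18 and -0.18 in control, with mean levels from 1.31 to 1.87 and from 1.38 to 1.71. Of the other 4, C1qa, C1qc and Mrc1 each cleared background on 2 arrays of knockout and 1 of control, and Cx3cr1 on 2 and 0. Itgam, at 9.38 to 10.2 over the arrays, raised the macrophage mean levels in the same way. The 8 of 8 endothelial markers stood at 0.36, 0.78 and -0.69 in knockout, against 0.97, -0.47 and -0.94 in control, and their mean levels ran from 0.54 to 2.004 and from 0.28 to 2.19. The 5 of 10 muscle fibre markers tested stood at 0.25, 0.67 and -0.80 in knockout, against 0.18, -0.21 and -0.088 in control, and Ckm and Myh2 were well above background on no array. Mean levels of the fibre markers ran from 0.58 to 2.05 and from 1.17 to 1.56. In the means of the lists, knockout 3 was lowest for the neutrophil, macrophage and fibre markers, and control 3 for the endothelial ones. Knockout 3 was also lowest in the mean for the 9 of 9 fibro-adipogenic progenitor markers, at -0.35, and the 12 satellite cell markers, at -0.38. Of 9 red blood cell markers 2 were tested, and they stood at 0.38, 0.76 and 0.27 in knockout, against -0.58, 0.19 and -1.01 in control, so knockout 3 was not low there. One of them, the globin gene Hba-a1, differed by 1.88 without overlap (SE 0.44, adjusted p = 0.348). The mean level of the 2 ran from 1.04 to 1.52 in knockout and from -0.25 to 0.96 in control. The part of these cells in the lysosome values was not tested.

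Other genes of the pathway, from lists made for this set, gave no call in limma either: 0 of 21 other autophagy genes, 0 of 12 Atg8 proteins and receptors, 0 of 29 other lysosomal hydrolases and cofactors, 0 of 13 other lysosomal membrane and trafficking proteins, 0 of 14 V-ATPase subunits and 0 of 22 genes of nutrient signalling. At an unadjusted p under 0.05, 3 of the 111 genes were higher in knockout and 2 lower (2.7% and 1.8%, against 2.77% and 4.45% of all genes), namely Sqstm1, Gabarapl1 and Lamtor5 against Rubcn and Acp2. Higher without overlap were 1 other autophagy gene, 2 of the Atg8 list and 1 of nutrient signalling, where 4.87% of all genes were. Lower without overlap were 1 other autophagy gene and 3 other hydrolases, where 5.95% of all genes were. The membrane and trafficking and V-ATPase lists had 0 in each direction. The largest median was 0.17, for the Atg8 proteins and receptors. In that list Sqstm1, which carries ubiquitinated cargo to the autophagosome, read 5.53, 5.60 and 5.29 in knockout, against 4.61, 4.72 and 4.71 in control. All knockout arrays lay above all controls, knockout 3 included (difference 0.79, SE 0.21, adjusted p = 0.420). Gabarapl1, an Atg8 protein, read 4.58, 4.58 and 4.33 in knockout, against 3.66, 4.14 and 3.71 in control, again without overlap (difference 0.66, SE 0.23, adjusted p = 0.582).

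The other autophagy genes had a median of -0.12. Rubcn, which encodes the inhibitor rubicon, read -0.47, -0.30 and -0.54 in knockout, against 0.51, 0.41 and 0.26 in control. The groups did not overlap, and the difference was -0.83 (SE 0.21, adjusted p = 0.398). Atg10, the E2-like enzyme of the Atg12 branch, differed by -0.59. Among the other hydrolases, whose median was 0.036, the acid phosphatase Acp2 differed by -0.99 (SE 0.29, adjusted p = 0.479), with all knockout arrays below all controls. The membrane and trafficking list had a median of 0.13, with the sorting receptors Sort1 at 0.51 and M6pr at 0.47. V-ATPase subunits, which acidify the lysosome, had a median of 0.075, with Atp6v1h at 0.51 and Atp6ap2 at 0.47. Genes that carry nutrient signals to TFEB and ULK1 had a median of 0.098, with Lamtor5 at 0.66 and Rragd at 0.57, both of which help place mTORC1 on the lysosome. The low values of knockout 3 extended to these lists: its centred mean was -0.30 for the other hydrolases, -0.32 for the V-ATPase, -0.34 for the other autophagy genes, -0.28 for the Atg8 list, -0.19 for the membrane and trafficking list and -0.13 for nutrient signalling, in each case the lowest of the 6 arrays.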

How the data were processed

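The 6 Agilent 1-colour arrays, 3 knockout and 3 control, lay on 1 slide. The authors' files hold linear intensity per spot, background-corrected, per the file headers, with Agilent Feature Extraction 10.7.1.1. Version 9.5.1.1 is named in the submitters' processing notes. The deposited table of values holds intensity with equal quantiles on all arrays (median 17.7) and served as an alternative. Its rows were named by matching probe identifiers; its scale was found to be linear and uncentred.

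Per the labels' protocols, RNA was amplified from a small input and carried Cy3. Processed signals were put on the log2 scale, minus the array's 75th percentile. Controls and outlier-flagged spots were dropped, and no probe was saturated (0 on each array). Of 55681 probes, 52937 had a gene name; 24763 probes of 17952 genes passed the background filter. Gene names were updated through 27235 matching accessions with RefSeq's table for GRCm38.p6, used for names alone. The comparison used limma 3.58.1, functions lmFit and eBayes (R 4.3.3, files read with data.table at 1.17.8), 2-sided, with Benjamini-Hochberg adjustment over all 17952 genes, and single values by 2-sided exact permutation. The fit was tested on simulated data. Precision is limited by the 3 arrays a group; the median SE was 0.28. Windows were searched in Python 3.11.15.

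The members and all lists were chosen with earlier results of these data known. Every member is named. Array values are given for members past the threshold or without overlap, for the 3 smallest p in the core and among the lysosome genes, and for Tfeb, Tfe3, Ulk1, Becn1 and Lamp1. Of each pathway list the 2 genes with the smallest p are named, except 1 gene that is not reported here. Array values of Atg5, Sqstm1, Gabarapl1 and Rubcn, and those of second probes, were added after they were seen. Alternatives changed background correction, scaling, filters, probe choice, value source, moderation, blocks and arrays.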

Additional observations from a re-analysis of the deposited data

How the results depend on the processing

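No member passed the adjusted threshold under any of the 20 alternatives, and Psmc4 stayed lower in knockout under each. The alternatives gave 542 member values with the main sign and 57 with the opposite one. Part of this agreement was fixed in advance, since the replicate block and changed moderation cannot alter a difference. Changed filters left the differences of the members they kept as they were. The slide row as a block and slide row 2 alone give the same differences, so they are not separate checks. Knockout 3 alone against the controls, in row 2 of the slide or with the slide row as a block, gave medians of -0.011 for the core and -0.35 for the lysosome genes and a lysosome minus core difference of -0.34 (-0.066 over all arrays). It turned the signs of Atg12 (-0.13), Pik3c3 (-0.011), Ctsa (-0.30), Ctsb (-0.37), Ctsd (-0.11), Lamp2 (-0.16), Npc2 (-0.33) and Psap (-0.40). Normexp turned Atg4b (0.0074), Ctsb (-0.012), Lamp2 (-0.021) and Npc2 (-0.028). Quantile normalization and the deposited table turned Ctsb (-0.0036 in both) and Lamp2 (-0.036 in both), median scaling turned Hexa (0.010), the percentile over detected probes turned Lamp2 (-0.0064), and the mean of tested probes turned Ctsa (-0.066), Gaa (0.061) and Gusb (0.016). The causes were not tested.

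Members higher in knockout without overlap numbered 2 with normexp (4.51% of all genes), 1 each with quantile normalization (5.46%), the deposited table (5.41%), detected probes (4.7%) and the mean of probes (5.14%), and 4 in slide row 2 (35.7%). Lower ones numbered 3 with the mean of probes (6% of all genes) and 15 in slide row 2 (30.2%). The 3 included Ulk2 and Wipi1, whose groups overlapped on their brightest probes. Their added dimmer probes passed the filter through control alone, so this count is not read as a result.

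With 1 array left out in turn, the core median ran from 0.024, without control 2, to 0.25, without knockout 3. Members without overlap ran from 1 to 11 higher, beside 8.39% to 15% of all genes, and from 1 to 3 lower, beside 9.17% to 13.2%. The 11 were without knockout 3, and Becn1 and Tfeb among them were tested only through knockout. Ranges that crossed 0 were -0.024 to 0.36 for Ulk1, -0.14 to 0.38 for Pik3r4, -0.46 to 0.26 for Uvrag, -0.46 to 0.31 for Atg4b, -0.28 to 0.11 for Lamp1, -0.052 to 0.087 for Lamp2, -0.29 to 0.28 for Mcoln1, -0.17 to 0.26 for Ctsa, -0.054 to 0.27 for Ctsb, -0.23 to 0.041 for Ctsz, -0.38 to 0.087 for Gaa, -0.19 to 0.17 for Hexa, -0.24 to 0.089 for Gusb, -0.17 to 0.20 for Npc2 and -0.00064 to 0.45 for Psap. The others kept their sign, from 0.024 to 0.28 for Pik3c3, 0.12 to 0.42 for Atg14, 0.33 to 0.94 for Atg9a, -0.74 to -0.063 for Wipi1, 0.22 to 0.73 for Wipi2, -0.82 to -0.40 for Ulk2, 0.40 to 0.92 for Atg3, -0.56 to -0.26 for Atg5, -0.66 to -0.35 for Atg7, 0.25 to 0.67 for Atg12, 0.12 to 0.39 for Atg16l1, 0.15 to 0.42 for Tfe3, 0.13 to 0.37 for Ctsd, 0.23 to 0.43 for Ctsl and -1.02 to -0.18 for Neu1.

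The labels state no pairing, so the numbers were not taken as pairs. Same-numbered arrays deviated together by correlations of 0.073, -0.020 and 0.093, and differently numbered ones by -0.092 to 0.038. With the replicate number as a block, no member was called (0, lowest adjusted p = 0.594). Each number holds 1 array of each group, so this block cannot change a difference or the core median of 0.16. Intensity near background limits Atg13, Npc1, Becn1 and Tfeb. It also limits Atg4b, which passed the filter through control alone, and the 3 arrays a group limit the rest.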
